A study of Rattus norvegicus with 24 samples.

Results

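The genes described here set liver and kidney together apart from 4 other tissues of the rat. Of 10411 genes measured, 503 met a rule on their signals: 368 were higher on every one of the 8 liver and kidney arrays than on any of the 16 arrays of hypothalamus, pituitary, spleen lymphocyte and bone, and 135 were lower on all 8. The rule was applied to log2 of the signals with values below 100 raised to 100. It used the signals themselves, so the direction of a member and its distance from the other tissues are given as descriptions, with no test. The study followed natural aging in male Sprague-Dawley rats at ages of 4, 10, 18 or 24 months. RNA of each tissue was pooled from 10 rats of an age and put on 1 Affymetrix array, which gave 24 arrays, 4 per tissue. The labels name no treatment and no engineered allele, and the same 10 animals gave every tissue of an age. The ages therefore served as the 4 repeats of a tissue, no array repeated a tissue at the same age, and the pooling hid the spread between animals.

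Liver and kidney are the organs that make glucose for the blood. Hepatocytes and the cells of the proximal tubule both release glucose from lactate, glycerol and amino acids, break down fructose, oxidise fatty acids in mitochondria and in abundant peroxisomes, degrade amino acids, and modify and export foreign compounds through cytochromes P450, conjugating enzymes and organic anion carriers. The transcription factors HNF1 and HNF4 are known in both epithelia. Liver adds plasma proteins, bile and urea, and kidney adds the reabsorption of filtered solutes and a set of hormones.

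Liver and kidney carried their own markers by summed signal, though not by every single marker. The summed signal of 15 hepatocyte markers was between 386084 and 426798 on the liver arrays and between 3326 and 5993 on the kidney arrays, 1.18% of the liver sum on average. The sum of 15 kidney tubule markers was between 68355 and 77137 in kidney and between 2365 and 2589 in liver, 3.45% of the kidney sum. Members among the markers (Cyp2c11 in the first list, Slc22a8 and Egf in the second) carried part of these sums. Over the 14 and 13 markers that were no members the percentages were 0.793% and 1.61%. The rule had kept the members for high signals in both organs, so leaving them out lowers these percentages. The sums also hide single markers. Lrp2 read 296 to 445 in liver and 8686 to 9928 in kidney, and Fgb 103 to 157 in kidney and 154 to 223 in liver. Kl read 26.6 to 97.4 in kidney, and Calb1 read 2513 to 3294 in the hypothalamus and 3408 to 6781 in kidney. The lowest kidney level of a higher member was 3.61% of its liver level, that of Azgp1, and the lowest liver level was 7.9% of the kidney level, that of Egf. Among the other tissues, the hepatocyte sum reached 16114 in the hypothalamus at 10 months, with albumin at 9580 against 376 to 1371 at the other ages, and 6482 in bone at 4 months. The kidney array of 18 months stood apart: the SD over genes of its log2 difference from the other kidney ages was 0.43, against 0.24 to 0.31 for the others. Over all arrays that SD ran up to 0.60, in bone at 4 months, with 0.56 in bone at 18 months and 0.46 in the hypothalamus at 24 months. The hypothalamus array of 10 months deviated in a like direction (Pearson's r of 0.41 over the 10411 genes, which are not independent). Without both arrays the rule gave 415 higher and 221 lower genes, and without the kidney array alone 405 and 213. In such bulk RNA, fewer cells of a type and less RNA per cell cannot be told apart.

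The genes higher in liver and kidney made up 3.53% of all genes and the lower ones 1.30%. The same rule found 505 higher genes for hypothalamus and pituitary and 465 for spleen lymphocyte and bone, and it found fewer lower genes than higher ones in each pair, 113 and 154. It gave 588 higher genes for liver alone and 553 for kidney alone. The distance, the lowest log2 signal of the 8 arrays minus the highest of the 16, had a median of 0.74 among the higher genes and a maximum of 5.92. It was at least 2-fold for 139 genes, at least 4-fold for 63 and at least 8-fold for 33, and it was under 1.25-fold for 94. For 19 higher genes all 16 arrays of the other tissues were below 100 (their distance is a lower bound, set by that value), and for 204 all 16 were at or above 100. Detection calls were not used, and a signal above 100 does not show that a gene is expressed. The difference between the mean log2 of the 8 arrays and that of the 16 had a median of 2.45 among the higher genes, against -0.12 over all genes. The lower genes lay closer, with a median distance of 0.19, a maximum of 1.50 and 6 genes at 2-fold or more. Their median difference of means was -1.40, and 105 of the 135 kept a signal of at least 100 on all 8 liver and kidney arrays.

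**Figure D1:**
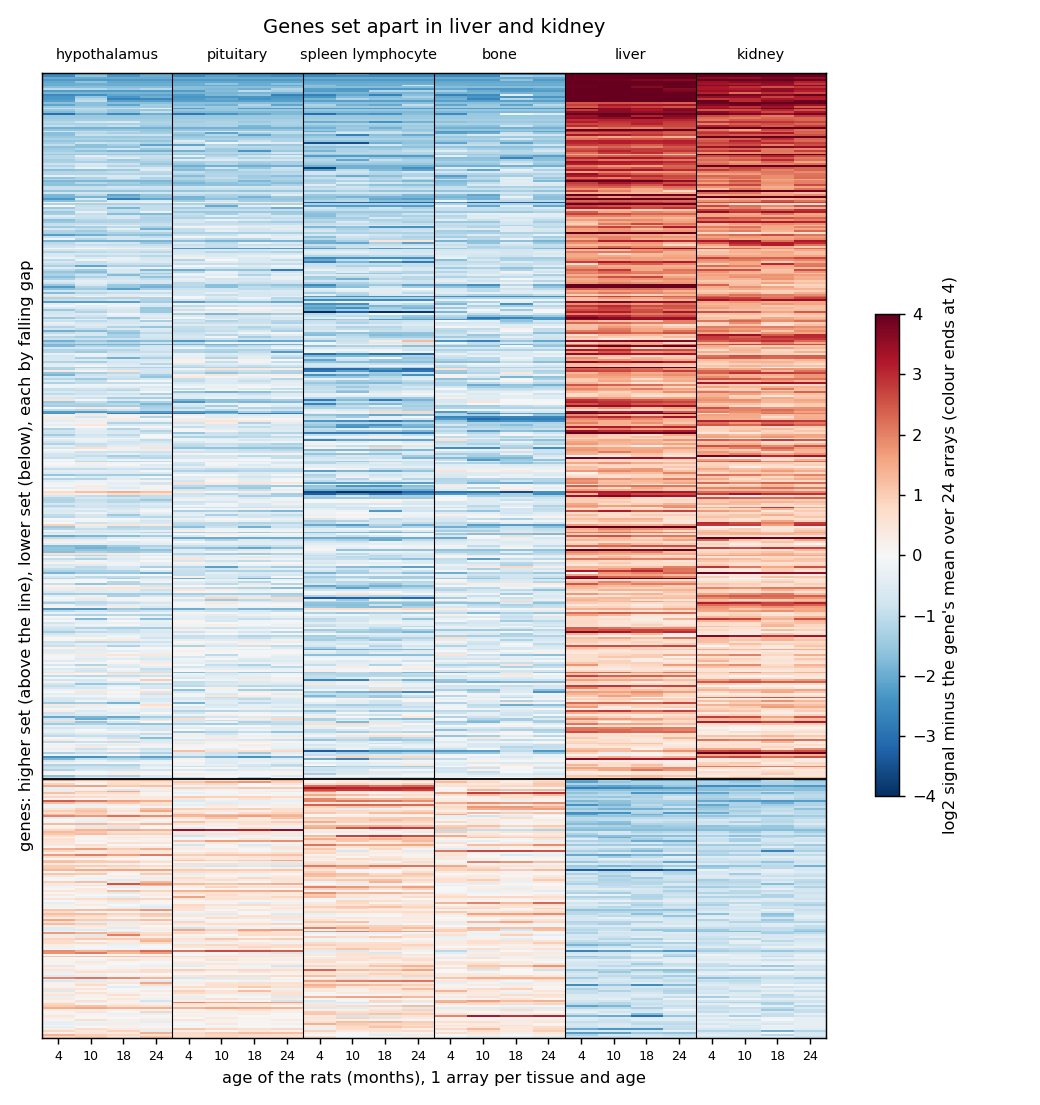
Log2 signal of each member gene minus that gene's mean over the 24 arrays, by colour, with genes in rows (higher set above the line, lower set below, each by falling distance) and arrays in columns by tissue and age in months. The higher genes had a median of tissue means of 11.05 in liver and 10.95 in kidney against 7.84 to 8.24 in the other tissues, and the contrast of the lower genes was smaller.

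The deposited signals hold no sequence, so the DNA before the transcription starts was read from RefSeq promoters of the rat build GRCr8. Of the higher genes 317, and of the lower genes 107, had an entry of 250 bases before the start. The palindrome to which HNF1 binds, written GTTAATNATTAAC, was searched on both strands because HNF1 is known in liver and kidney epithelia. With up to 2 mismatches it was in 17 of the 317 promoters, 5.36%, against 1.05% of 8610 promoters of measured genes, 1.12% of all 27457 promoters and 0.935% of those of the lower genes. With up to 3 mismatches it was in 39, 12.3%, against 4.94% of the promoters of measured genes and 7.63% of all promoters. Liver alone, kidney alone and both pairs of other tissues had 5.11%, 4.56%, 0.716% (hypothalamus and pituitary) and 0.506% (spleen lymphocyte and bone) with up to 2 mismatches. The share was thus near that of genes high in liver or in kidney by itself, and those sets hold 141 and 89 of the 368 genes. These shares are descriptions, chosen after the signals were known, and a match is not a bound site. Both Spink1l and Spink1 are counted among the 17 promoters, although the 63 bases around their matches were the same. The windows show 25 bases on either side of the match in 8 members, those of largest distance with up to 2 mismatches apart from Spink1l. They are given 5′ to 3′ on the gene's strand, with the letters of the match in capitals.
Prodh2, hydroxyproline dehydrogenase, chr1:94880913-94880975, + strand: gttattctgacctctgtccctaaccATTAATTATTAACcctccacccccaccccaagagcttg
Apom, apolipoprotein M, chr20:3695541-3695603, + strand: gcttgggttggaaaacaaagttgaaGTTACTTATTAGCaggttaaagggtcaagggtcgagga
Cyp2e1, a cytochrome P450, chr1:205269812-205269874, + strand: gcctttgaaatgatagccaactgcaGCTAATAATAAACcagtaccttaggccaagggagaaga
AKR1C3l1, an aldo-keto reductase, chr17:70757360-70757422, + strand: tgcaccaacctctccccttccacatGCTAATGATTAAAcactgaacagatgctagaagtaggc
Akr1c13, an aldo-keto reductase, chr17:70894439-70894501, + strand: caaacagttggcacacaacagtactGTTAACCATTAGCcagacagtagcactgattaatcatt
Slc17a3, an anion transporter, chr17:41723144-41723206, - strand: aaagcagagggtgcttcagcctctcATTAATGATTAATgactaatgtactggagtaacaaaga
Igfbp1, an insulin-like growth factor binding protein, chr14:86261176-86261238, + strand: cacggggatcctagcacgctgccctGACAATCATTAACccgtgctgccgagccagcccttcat
Apcs, serum amyloid P component, chr13:87906621-87906683, - strand: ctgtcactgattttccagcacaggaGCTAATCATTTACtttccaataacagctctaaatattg
The match of Prodh2 had 1 mismatch and lay 149 to 137 bases before its start, and that of Apom had 2 and lay 52 to 40 bases before.

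The left part of the palindrome alone, GTTAAT, which overlaps it, was in 6.62% of the higher genes' promoters and 4.36% of those of measured genes on either strand. Among all 27457 promoters its share was 6.46%, near that of the higher genes. The C/EBP motif TTGCNNAA was in 7.89% against 7.97%, and the TATA box TATAAA in 8.2% against 8.35%, so those shares lay near the background. The HNF4 motif CAAAGTCCA was in 3 promoters, 0.946% against 0.36%: those of Pdzk1, a scaffold of transporters in the apical membrane, Agxt2, a mitochondrial aminotransferase, and Kmo, kynurenine monooxygenase. The share was 1.43% for genes high in liver alone, 0.868% for kidney alone, 0.716% for hypothalamus and pituitary and 0 for spleen lymphocyte and bone. With 1 mismatch it was in 41 promoters, 12.9% against 6.4%, and in 14.3%, 12.4%, 5.97% and 4.81% of those sets. The windows are given with the motif in capitals, and that of Kmo carries it on the opposite strand.
Pdzk1, chr2:187064961-187064994, + strand: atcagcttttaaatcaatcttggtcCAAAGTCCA
Agxt2, chr2:61063343-61063401, + strand: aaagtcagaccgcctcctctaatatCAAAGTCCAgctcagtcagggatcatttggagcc
Kmo, chr13:90089422-90089480, + strand: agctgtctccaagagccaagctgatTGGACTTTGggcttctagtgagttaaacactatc

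Of 5 measured genes of gluconeogenesis, 4 were higher members, and the median difference of means of the list was 2.60. For this and the lists below, the share of higher members over all genes was 3.53% and the median difference -0.12. Signals are given in the order 4, 10, 18 and 24 months. Fbp1, fructose-1,6-bisphosphatase, had the largest distance of all members, 5.92, with signals of 9043, 11552, 9560 and 9974 in liver and 13919, 13097, 13535 and 13517 in kidney. No array of the other tissues exceeded 149 for it. Pck1, phosphoenolpyruvate carboxykinase, read 30754, 22622, 20347 and 16145 in liver and 14269, 12495, 10340 and 13021 in kidney, and 120 to 850 elsewhere. Both enzymes bypass steps of glycolysis that do not run backwards. Slc37a4, which carries glucose 6-phosphate into the endoplasmic reticulum, lay between 1984 and 2458 in liver and between 2204 and 3547 in kidney against at most 736 elsewhere, and Pc, pyruvate carboxylase, lay closer to the other tissues at a distance of 0.45. The measured gene outside the set was Pck2, the mitochondrial form of the carboxykinase.

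Of 9 measured genes for the use of fructose and polyols, 7 were higher members, with a median difference of 3.34 for the list. Khk, ketohexokinase, which starts fructose breakdown, had signals of 4272, 3377, 3485 and 3421 in liver, 4541, 3780, 2820 and 3668 in kidney, and 156 to 306 in the other tissues. Its liver and kidney arrays overlapped, and kidney minus liver was 0.01 on the log2 scale with a 95% interval of -0.37 to 0.40. Tkfc, which phosphorylates the glyceraldehyde made next, read 2977, 2627, 2304 and 3071 in liver and 2378, 2599, 1751 and 2577 in kidney against at most 267 elsewhere. Sord, sorbitol dehydrogenase, read 7648, 6956, 5746 and 4748 in liver and 4581, 4124, 4131 and 4524 in kidney against at most 508. The glucose and fructose carrier Slc2a2 was below 100 on all 16 other arrays, and its liver signals, 4616 to 5656, all exceeded the kidney signals, 898 to 1796. Slc2a5, another fructose carrier, was no member. In the list of ascorbate and uronate synthesis 2 of 7 measured genes were members: Rgn, the gluconolactonase before the last step of vitamin C synthesis (liver 6749 to 10950, kidney 2756 to 4293, elsewhere at most 129), and Ugdh, which makes UDP-glucuronate. Miox, the inositol oxygenase of the kidney, missed the rule by 0.01, since its kidney signals of 15864 to 19571 stood beside liver signals of 347 to 547 and a bone signal of 350 at 18 months.

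**Figure D2:**
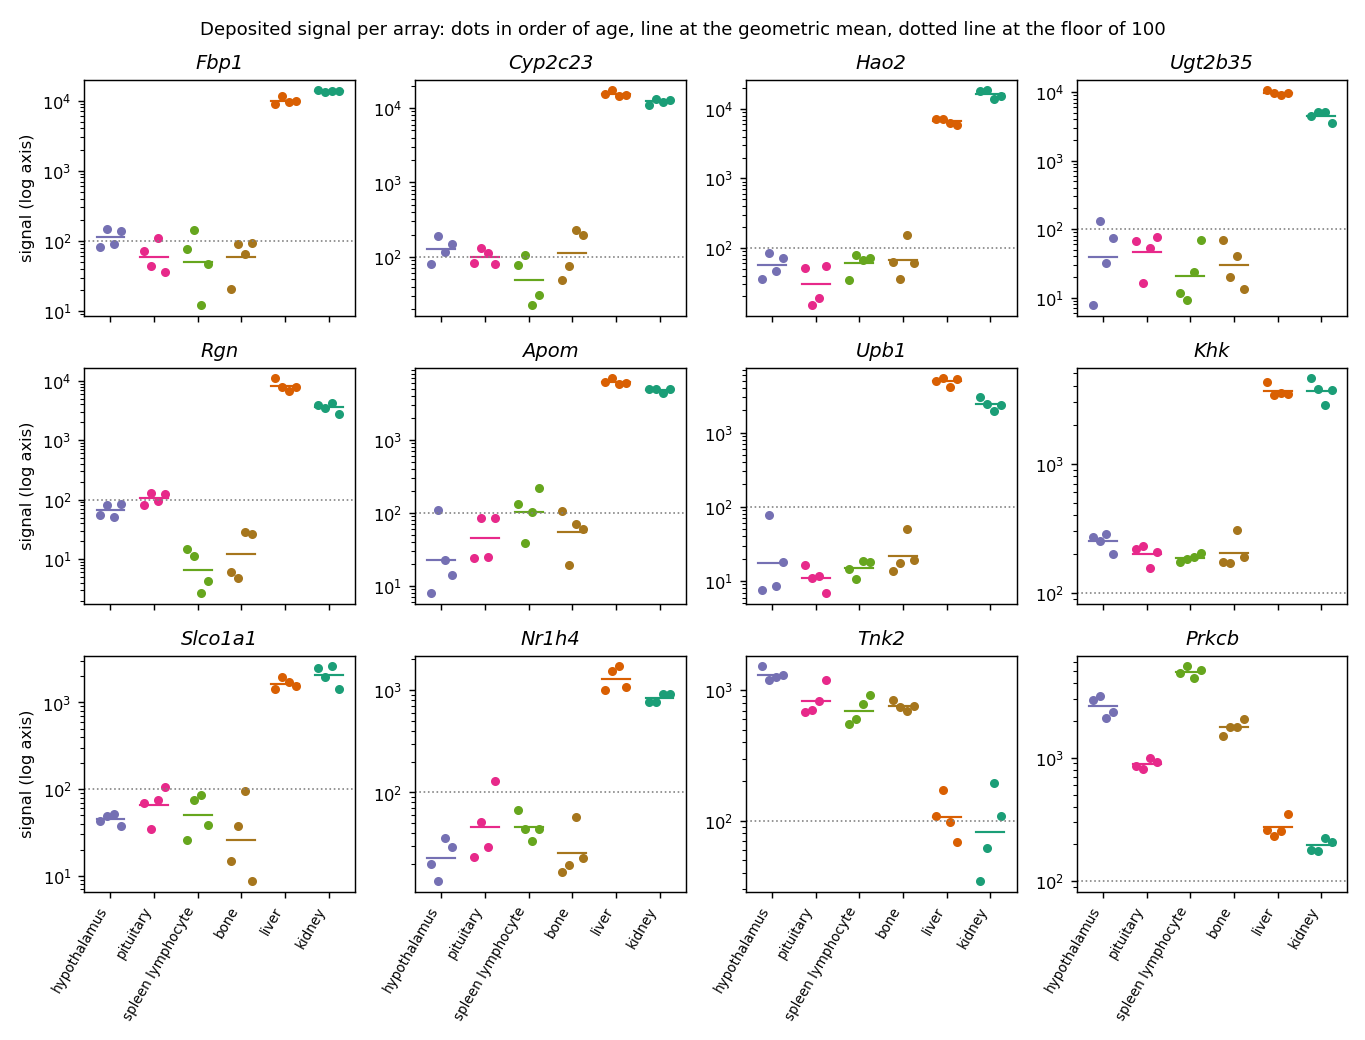
Signals of single member genes on each array by tissue, on a log axis, 1 point per array in order of age, with a line at the geometric mean of a tissue and a dotted line at 100. For Fbp1 the 8 liver and kidney points lay between 9043 and 13919 and the 16 others at or below 149; for Khk the liver and kidney points overlapped.

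Peroxisomes gave 22 higher members among 38 measured genes, with a median difference of 2.31 and 36 of the 38 differences above 0. Hao2, a hydroxyacid oxidase of the peroxisome, read 7244, 7180, 6266 and 5936 in liver and 18292, 18444, 13839 and 15281 in kidney against at most 154 elsewhere. Dao, D-amino acid oxidase, read 1021, 804, 966 and 719 in liver and 5226, 5961, 4704 and 5673 in kidney against at most 43.6. Ehhadh, the bifunctional enzyme of peroxisomal beta-oxidation, read 2563, 2557, 2461 and 2565 in liver and 1652, 2450, 1667 and 1404 in kidney against at most 204. The 2 oxidases were thus higher in kidney, and by the limma test given further on 14 of the 22 peroxisomal members were called higher in liver and 3 in kidney, beside 20.3% and 29.4% of all genes tested. Cat, catalase, with 19037 to 24997 in liver and 7393 to 9224 in kidney, was also plainly measured elsewhere, up to 4253 in bone. Acsl1 and Scp2, which activate and carry fatty acids, met the rule by 0.03 and 0.08, while the urate oxidase Uox and the glyoxylate aminotransferase Agxt, which were higher in liver than in kidney, did not.

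Mitochondrial fatty acid oxidation gave 13 members of 25 measured genes, and all 25 differences of means were above 0 (median 2.0). Acadm, the medium-chain acyl-CoA dehydrogenase, read 6418, 8127, 6545 and 7019 in liver and 7837, 7895, 8794 and 7465 in kidney against at most 1315 elsewhere. Etfa, which takes the electrons of these dehydrogenases, read 3256, 3037, 3030 and 4215 in liver and 3025, 2866, 3626 and 2964 in kidney against at most 882. Its partner Etfb and Etfdh, which passes the electrons to ubiquinone, were members as well. Of the 13 members, 0 were called higher in kidney and 7 in liver (29.4% and 20.3% of all genes tested), among them Acaa2, a thiolase (liver 6964 to 11327, kidney 3757 to 5076). Hadha, the alpha subunit of the trifunctional protein, missed the rule by 0.02 while its partner Hadhb met it, and Cpt2 and Acads were not members.

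The degradation of amino acids was the largest list, with 45 higher members among 76 measured genes and a median difference of 2.45. The 3 enzymes of pyrimidine breakdown were all members: Dpyd (liver 1322 to 1781, kidney 380 to 651, elsewhere at most 320), Dpys (liver 3005 to 3821, kidney 1116 to 1337, elsewhere at most 31.8) and Upb1 (liver 4165 to 5365, kidney 1950 to 3061, elsewhere at most 77). In tyrosine breakdown Hpd read 14987, 18121, 13254 and 19085 in liver and 10126, 8679, 7995 and 11229 in kidney against at most 482 elsewhere, and Fah and Gstz1, later enzymes of the same path, were members. In the kynurenine path Haao read 4034, 4132, 3877 and 3950 in liver and 4105, 3149, 2113 and 3233 in kidney, and Kmo, Kynu, Aadat and Qprt were members, while Tdo2, the entry enzyme of the liver, was not. These sub-pathways were picked after the values were seen.

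In lysine breakdown Aass read 8571, 5402, 4779 and 5538 in liver and 5176, 4655, 6677 and 5369 in kidney against at most 354 elsewhere, with overlapping liver and kidney arrays. Hydroxyproline and glyoxylate breakdown showed Prodh2 (1548, 1759, 1870 and 1675 in liver, 1390, 1345, 1119 and 1047 in kidney), Hoga1 and Agxt2 (1186 to 1700 in liver, 8203 to 10860 in kidney). Ass1, which joins citrulline and aspartate, read 17590, 18455, 12458 and 20469 in liver and 12053, 11277, 6224 and 11302 in kidney against at most 2818 elsewhere, and Asl, which releases arginine, was a member as well. Otc, with 3611 to 5211 in liver, stayed at or below 10.1 in kidney, and Cps1 and Arg1 were not members either, so the urea cycle steps on either side of Ass1 and Asl did not meet the rule. Folate and methyl group enzymes of the list that met the rule included Dmgdh and Sardh, and the methyltransferases Bhmt and Gnmt, whose liver signals of 3435 to 5118 and 4139 to 6387 stood far over kidney signals of 376 to 586 and 438 to 728.

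Of 52 measured genes of cytochromes P450 and other phase 1 enzymes, 20 were higher members and 1, Cbr1, a carbonyl reductase, was a lower member. Cyp2c23, the arachidonic acid epoxygenase of the rat, had a difference of means of 6.81, the largest on the scale that raises signals below 100 to 100: it read 15231, 17221, 14444 and 14807 in liver and 10874, 13261, 12095 and 12895 in kidney against at most 232 elsewhere. Cyp2e1 read 16296, 18172, 16587 and 19322 in liver and 4626, 5026, 6077 and 5507 in kidney against at most 287, and Cyp2d2 13060 to 23049 and 3298 to 5652 against at most 204. Among the fatty acid hydroxylases of family 4, Cyp4a3 read 2970, 4065, 4128 and 4314 in liver and 5412, 6264, 5414 and 4780 in kidney, whereas Cyp4a1 was higher in liver (4100 to 7191 against 1167 to 2020). Of 33 conjugating enzymes and glutathione genes, 10 were members, led by the glucuronosyltransferase Ugt2b35 (liver 9036 to 10535, kidney 3550 to 5137, elsewhere at most 133) and the sulfotransferase Sult1b1. Genes of near-identical families such as these can share probes, and their levels are uncertain to that degree.

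Of 63 measured solute transporters, 16 were members. Slco1a1, an organic anion transporter, read 1418, 1989, 1716 and 1532 in liver and 2472, 1975, 2606 and 1447 in kidney against at most 106 elsewhere. Slc17a3, another anion transporter, read 1080, 1369, 1327 and 1475 in liver and 1166, 1258, 1869 and 1223 in kidney against at most 155. Pdzk1 read 786, 724, 820 and 616 in liver and 5839, 7034, 4750 and 5944 in kidney against at most 105. In the first 2 of these the liver and kidney arrays overlapped, and in Pdzk1 they did not. Slc10a1, the bile acid carrier, was higher in liver than in kidney and no member, and Slc22a6, an organic anion carrier, was higher in kidney and no member. Among 32 epithelial genes 6 were members, among them the membrane protease Hpn, the junction proteins F11r and Ocln, and the tight junction channel Cldn2 (629 to 883 in liver, 2397 to 2620 in kidney).

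Of 29 measured receptors and factors of hepatocytes 3 were members, 10.3%, and the list's median difference was 0.89. Nr1h4, the bile acid receptor FXR, read 1001, 1534, 1706 and 1065 in liver and 761, 767, 910 and 918 in kidney against at most 129 elsewhere. Klf15, a factor of fasting metabolism, read 1516, 1141, 924 and 1168 in liver and 1249, 1162, 907 and 1084 in kidney against at most 532. Mlxipl, the carbohydrate response factor ChREBP, read 614, 387, 253 and 301 in liver and 322, 224, 246 and 208 in kidney against at most 189. Hnf4a was measured low, 132 to 273 in liver and 180 to 342 in kidney, and missed the rule through a bone signal of 224 at 18 months. Ppara and Nr5a2 were below 100 on all arrays, so their probe sets gave no level to compare. Of 47 secreted proteins, 8 were members, led by Apom (6219, 6975, 5913 and 6105 in liver, 4954, 4966, 4387 and 5032 in kidney, elsewhere at most 222), and albumin was no member.

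**Figure D3:**
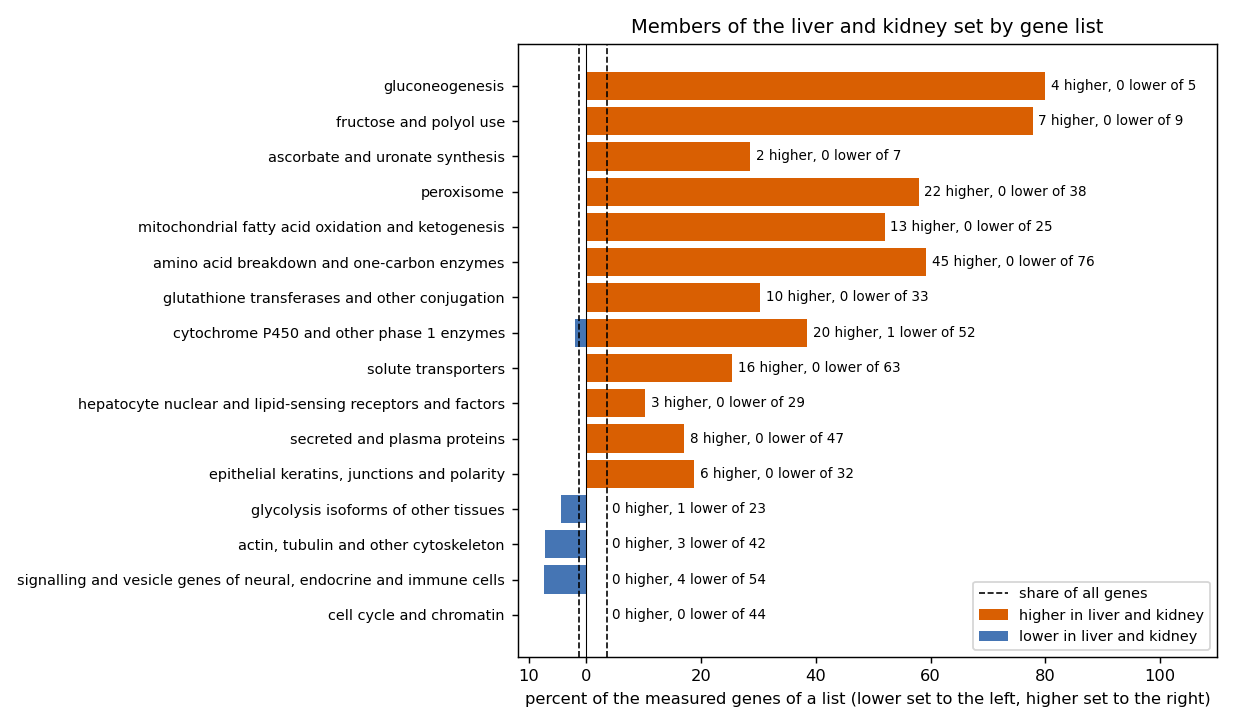
Share of the measured genes of each list that were higher (bars to the right) or lower members (to the left), in percent, with dashed lines at the share over all genes (3.53% and 1.30%). The gluconeogenesis list had 80% and the amino acid list 59.2% higher members, and the cell cycle list had none in either direction.

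Of the 576 measured genes of the lists, 154 were higher members, 26.7%, and the other 214 higher members were in no list. Since the lists were written with earlier results of these data known, these shares are a description. A few families outside the lists were looked at after the members were seen. The respiratory chain and ATP synthase had 13 higher members of 75 measured genes, 17.3% against 3.53% of all genes. Of their differences 69 were above 0, with a median of 0.85 against -0.12 over all genes. The members included Sdha, the succinate dehydrogenase subunit (3412 to 4546 in liver, 5810 to 6879 in kidney, at most 2795 elsewhere), and 6 of 34 subunits of NADH dehydrogenase. Aldo-keto reductases had 6 higher members of 13, 46.2%, and hydroxysteroid dehydrogenases 5 of 16, 31.2%. Hsd11b1, which makes active glucocorticoid, read 9195 to 10063 in liver and 7444 to 8983 in kidney, and Hsd11b2, which inactivates it, 369 to 740 and 2236 to 3039. Both met the rule, at distances of 2.77 and 0.09. Spink1l, a trypsin inhibitor gene in no list, had a distance of at least 5.52, a bound since all 16 other arrays lay below 100, with 8529, 7588, 8975 and 8738 in liver and 4893, 4602, 5477 and 4579 in kidney against at most 84.5.

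Of the 135 lower genes, 9 were in a list. Tnk2, a nonreceptor tyrosine kinase, had the largest distance, 1.50: it read 109, 171, 97.9 and 68.9 in liver and 34.4, 61.9, 195 and 108 in kidney against 551 to 1527 in the other tissues. Prkcb, protein kinase C beta, had the largest difference of means on that scale, -3.20, and read 261, 234, 256 and 352 in liver and 179, 174, 224 and 206 in kidney against 805 to 5489. A second probe set of Prkcb had a difference of -1.07 and did not meet the rule. Rgs2, which shortens G protein signals, read 149, 165, 183 and 204 in liver and 308, 345, 332 and 311 in kidney against 771 to 9220. Part of the signals of Tnk2 lay below 100 and were raised to 100 in the rule. In the list of signalling and vesicle genes of neural, endocrine and immune cells 4 of 54 were lower members, 7.41% against 1.30% of all genes. They were Prkcb, Rgs2, the calcineurin subunit Ppp3cb and the calcium-dependent kinase Camk2g. In the cytoskeleton list 3 of 42 were lower members, 7.14%: the tubulin Tubb5 (574 to 709 in liver, 474 to 818 in kidney, at least 1297 elsewhere), Dpysl2, a protein of growing axons, and Stmn1, a protein that frees tubulin. The medians of these lists were -1.02 and -0.77, and that of the cell cycle list, which had no member, was -1.19. Slc2a3, a glucose carrier of neurons, was the lower member of 23 glycolysis genes of other tissues.

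Splicing genes of the hnRNP, LSM and SR groups and other splicing factors had 10 lower members of 64 measured, 15.6% against 1.30% of all genes. This family too was looked at after the members were seen. Of the 64 differences 2 were above 0, with a median of -0.74 against -0.12 over all genes. Bcas2, a core splicing protein, had signals of at most 774 on the 8 arrays and at least 1216 on the 16. Lsm4 had at most 653 against at least 940, and Hnrnpa1 at most 804 against at least 959. Their distances of 0.65, 0.53 and 0.25 were small beside those of the higher genes. Nop56, a protein of small nucleolar RNPs, read 402 to 458 in liver and 372 to 460 in kidney against at least 825. The number of lower genes also depended on scaling: after each array was centred on its median, 442 higher and 67 lower genes met the rule, 86.8% higher, against 73.2% as deposited.

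Members near the limit of the rule were separated by little. Just inside among the higher genes were Rbpms2 (lowest of the 8 arrays 763, highest of the 16 762), Dnmbp and Pyurf, and just outside were Lhpp (615 against 616), Hoxb7 and Cdk2ap2 (1585 against 1588). Among the lower genes Ddhd2 (highest of the 8 arrays 488, lowest of the 16 489), Arhgap39 and Pbx3 were just inside, and Zdbf2, Cpne2 and Chsy1 just outside. The kidney array of 18 months was the lowest of the 8 for 86 of the 368 higher genes and the highest for 32 of the 135 lower genes. Bone at 18 months was the highest of the 16 for 45 genes.

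Other probe sets of the same genes, which the rule did not use, gave a measure on the same RNA. Those counted came from 1670 of the 1868 genes with several probe sets. Of 62 second probe sets of 53 higher genes, 14 met the rule by themselves, 22.6%, against 1.11% of the 2063 counted over all genes. Of the 62, 55 were higher on average (median 0.99, all 2063 -0.09). The other 7 were lower on average, among them a probe set of Myh1 (difference of means -1.4) and that of Plin2 (-1.18). Among the genes of the higher set, a second probe set of Cyp4a8 had its 8 liver and kidney values at least 1.53 above the 16 others on the log2 scale, and that of Ctsl, cathepsin L, at least 1.89. In these 2 genes the first probe set lay closer to the other tissues. It read at least 382 against at most 296 for Cyp4a8, and at least 4327 against at most 2692 for Ctsl. Of 46 second probe sets of the lower genes, 4 met the rule, 8.7% against 0.582%, and 42 were lower on average (median -0.84). Among the lower genes named above, that of Rgs2 met it, and those of Prkcb, Ppp3cb, Tubb5, Slc2a3 and Hnrnpa1 did not. Most second probe sets thus pointed the same way as the first but did not meet the rule, and as they read the same RNA they are no further replicates.

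Within the set, liver and kidney were compared over the 4 ages by limma, with the age as a block since both organs came from the same rats. The rule did not use this contrast. It does keep genes low in either organ out of the higher set, and genes high in either organ out of the lower set. Of the 368 higher genes, 83 were called higher in kidney, 22.6% against 29.4% of all genes tested, and 136 higher in liver, 37% against 20.3% (adjusted p below 0.05). In either direction 59.5% were called, against 49.7% of all 8541 genes. Of the higher genes 64.9% lay within 2-fold between the organs, against 74.9% of all genes, and the median of kidney minus liver was -0.18 on the log2 scale, against 0.08 over all genes. All 368 higher genes read at least 100 on all 8 arrays, while a tested gene needed only 4 arrays above 100. The floor shrinks the differences of genes with low signals. The shares called and within 2-fold thus do not compare genes of like signal level. All 4 liver arrays exceeded all 4 kidney arrays in 141 higher genes, the reverse held in 89, and 138 overlapped. Of the 135 lower genes 117 were tested, of which 22 were called higher in kidney and 5 in liver, and 112 lay within 2-fold, 95.7%. For these genes the rule held every liver and kidney signal below all the other tissues, and the lowest signals were raised to a common floor. Both steps limit how far the organs can differ, so this share cannot be compared with that of all genes.

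The genes with the most kidney signal over liver were Egf, Akr7a3, Acy1, Sult1c2a and Gss. Egf, the epidermal growth factor made in the distal tubule, read 534, 217, 314 and 480 in liver and 4749, 4841, 5482 and 4504 in kidney, a log2 difference of 3.75 ± 0.24 (SE, limma adjusted p = 9.02e-07). Acy1, an aminoacylase, read 1749, 1510, 1692 and 1606 in liver and 17991, 13943, 10584 and 13906 in kidney (3.08 ± 0.18), and Gss, glutathione synthetase, 378 to 715 and 2917 to 5276 (3.03 ± 0.26). Akr7a3, an aldehyde reductase, differed by 3.16 ± 0.19 and the sulfotransferase Sult1c2a by 3.03 ± 0.18. In these genes the liver level was the bound of the rule, and it lay just above the other tissues for Egf, at a distance of 0.04.

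The genes with the most liver signal over kidney were Azgp1, Hrg, Pigr, Rarres2 and Pzp. Azgp1, a secreted zinc-binding glycoprotein, read 16067, 16660, 14151 and 16369 in liver and 385, 511, 535 and 853 in kidney, a difference of -4.85 ± 0.21 (limma adjusted p = 4.28e-08). Hrg, histidine-rich glycoprotein, read 24140, 24525, 24830 and 24226 in liver and 926, 797, 1109 and 1046 in kidney (-4.67 ± 0.17). Pigr, the receptor that carries immunoglobulins through epithelia, read 34914, 33725, 33295 and 32790 in liver and 1017, 1939, 2961 and 2730 in kidney (-4.07 ± 0.26). Rarres2, the precursor of chemerin, differed by -4.06 ± 0.19 and Pzp, a protease inhibitor of plasma, by -3.96 ± 0.16. In 9 higher genes the kidney mean was under 10% of the liver mean. Pck1 was called higher in liver (-0.81 ± 0.19, adjusted p = 0.00521), but after quantile normalization of the arrays its difference was 0.14 with an adjusted p of 0.519.

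**Figure D4:**
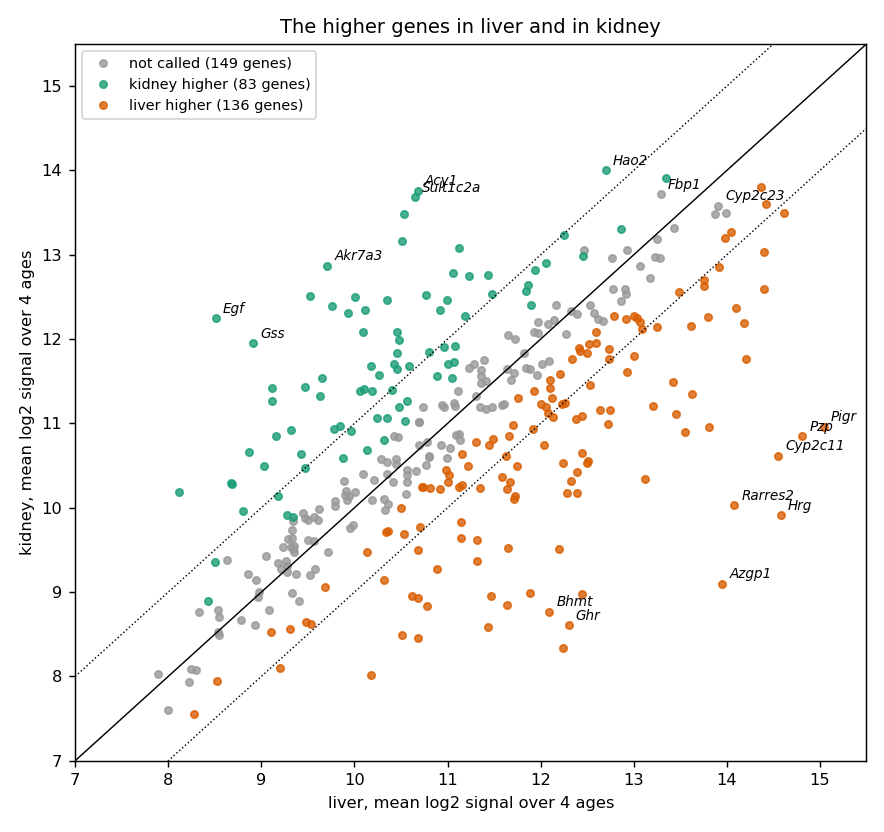
Mean log2 signal over the 4 ages in kidney against that in liver for the 368 higher genes, 1 point per gene, coloured by the limma call, with a solid line at equal levels and dotted lines at 2-fold. The genes spread on both sides of the line, from Egf (kidney minus liver 3.75) to Azgp1 (-4.85), and 149 were not called.

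The genes nearest to equal levels were Hsd17b10, Acot4, Grpel1, Fyn and Hexa. Hsd17b10, a mitochondrial dehydrogenase of isoleucine and steroids, read 5390, 5729, 4233 and 5417 in liver and 5004, 5705, 4885 and 5072 in kidney, and the 95% interval of its difference ran from -0.37 to 0.37. Acot4, a peroxisomal thioesterase, had an interval of -0.44 to 0.43, and Hexa, the lysosomal hexosaminidase subunit, -0.38 to 0.41. The lower gene Fyn, a Src family kinase, read 116 to 153 in liver and 107 to 188 in kidney. These intervals hold differences in either direction, and a missing call does not show that the organs were equal. By list, and beside 29.4% of all genes called higher in kidney and 20.3% in liver, the 7 fructose members had 0 called higher in kidney, 2 in liver and 5 in neither, and the 45 amino acid members 12, 22 and 11. The 16 transporters had 6, 4 and 6.

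No gene of the 8541 tested by limma in liver and kidney had an age slope with an adjusted p below 0.05, 0.00% in either direction, so none of the 368 higher genes did, nor any of the 117 lower genes that were tested. At an unadjusted p below 0.05, 16 of the 368 higher genes had a slope, 4.35% against 4.02% of all genes, 6 upward and 10 downward. The slopes differed between kidney and liver at that level in 12 higher genes, 3.26% against 6.58%, and from the slopes of the other tissues in 22, 5.98% against 5.40%. None of these differences passed adjustment either, 0.00% of 8541 and of 9682 genes, with a smallest adjusted p of 0.73 and 0.0825 among the higher genes. The median change over 20 months was -0.08 on the log2 scale among the higher genes, 0.05 among the lower ones and 0.02 over all genes.

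Nat8, an acetyltransferase of kidney and liver that completes the mercapturates, had the lowest p. It read 2070, 1206, 850 and 531 in liver and 7507, 6577, 5435 and 4208 in kidney, lower at each later age in both organs. Its fitted change over 20 months was -1.34 (limma, adjusted p = 0.701), and its slope minus that of the other tissues had an adjusted p of 0.0825. With all 24 arrays in the fit, its slope in liver and kidney had an adjusted p of 0.0023. Cyp2c11, the P450 of the male liver, read 30190, 25543, 22056 and 19496 in liver and 3320, 1513, 1034 and 1184 in kidney, a fitted change of -1.04. The fitted changes of Mlxipl, Ppcs, an enzyme of coenzyme A synthesis, and Gpd1, glycerol 3-phosphate dehydrogenase, were -0.80, -0.59 and -0.48. Upward, the lower genes Usp48 and Sh3kbp1 gave 0.90 and 0.84, and the higher genes Crot, the carnitine octanoyltransferase of peroxisomes, and Ces2c, a carboxylesterase, 0.77 and 0.61. Gk, glycerol kinase, gave 1.33, with 284, 882, 1006 and 729 in liver and 388, 541, 1541 and 801 in kidney, so it was highest at 18 months in both. The adjusted p of these 9 genes was 1.

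**Figure D5:**
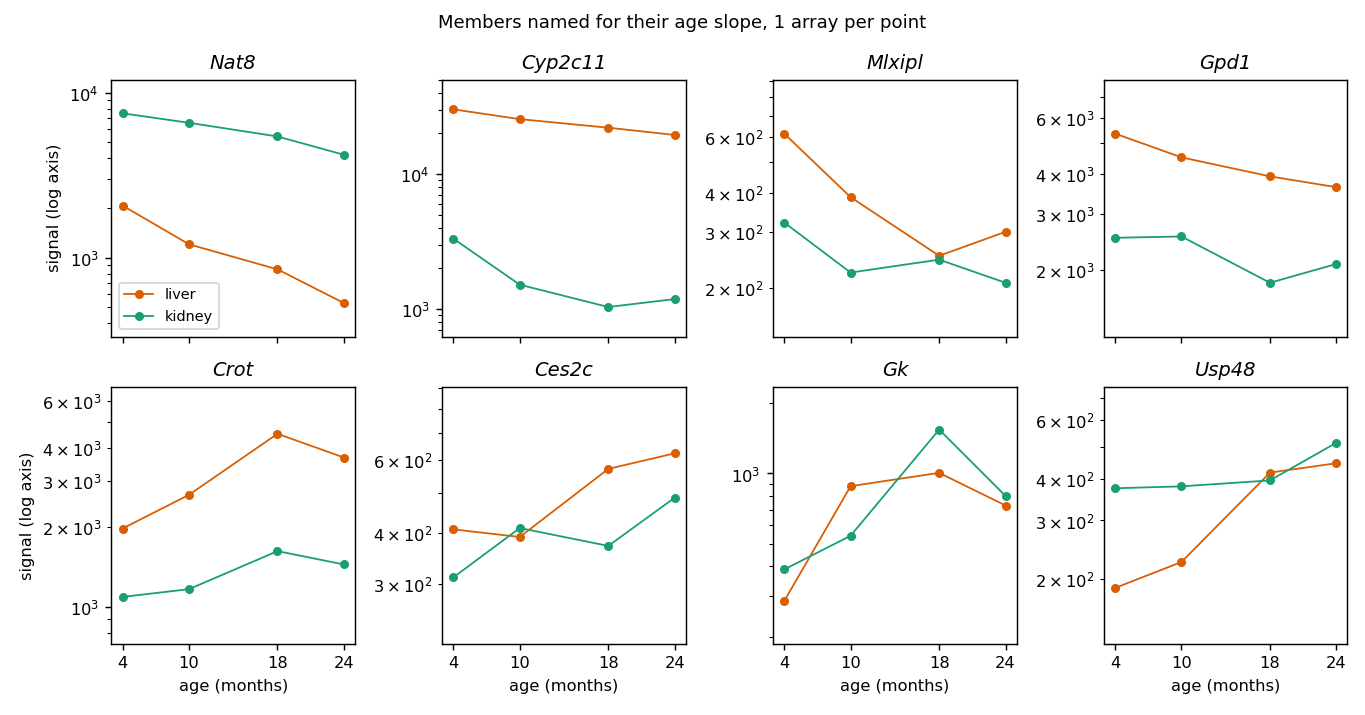
Signals of 8 members named for their age slope by age in months, on a log axis, 1 array per point, liver and kidney as lines. Nat8 was lower at each later age in both organs, from 2070 to 531 and from 7507 to 4208, and no slope passed the adjusted threshold in the 8 arrays.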

How the data were processed

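Total RNA of 6 rat tissues at 4 ages was hybridised to Affymetrix RAE230A arrays, 1 per tissue and age, with RNA pooled from 10 rats. The authors summarised the scans with MAS5.0 (its version is not stated in these sources) into linear signal intensities of probe sets, with a scaling target of 500, and these deposited intensities were used with no further normalization. Such scaling makes a level relative to all genes of an array. Adrenal gland was not analysed here. Of 15923 probe sets, 12789 had 1 gene symbol in the platform annotation, 312 several and 2822 none. Of the first, 12754 matched RefSeq by gene identifier. Where a gene had several probe sets (1868 of 10411 genes), the one above 100 on the most arrays was kept, with ties broken by mean. The median signal of an array was 213.2 to 309.0, and between 75.9% and 82.4% of genes were at or above 100. The number of arrays limits the precision. The members and lists were chosen with earlier results of these data known.

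Signals below 100 were set to 100 before log2. Kidney was compared with liver, and age slopes were tested, by limma 3.58.1 (R 4.3.3) with Benjamini-Hochberg adjustment over all genes above 100 on at least 4 arrays (8541 for 8 arrays, 9682 for 24). Ages stood in for replicates. The p-values of kidney against liver thus measure how that difference varied over the ages. Those of the slopes measure the spread around the fitted lines, and neither kind measures the spread between animals. The age block was used because both organs were taken from the same animals at each age. Deviations of same-age liver and kidney arrays from their tissue means correlated between -0.067 and 0.110, and those of different ages between -0.16 and 0.156. For the liver arrays of 10 and 24 months the same-age value, 0.038 and 0.11, was just above the highest with another age, 0.033 and 0.097. For those of 4 and 18 months it was not. These 4 values do not settle whether the organs were paired by age. Scripts were tested on simulated data. The named genes were those of largest distance, largest difference of means, largest and smallest kidney minus liver difference, smallest p of the age slope, nearest to the rule, and 2 to 5 of each list, beside markers and list genes a reader would look for. Alternatives were other floors (50, 200), quantile normalization, median centring, probe set rules, no filter, other blocks and leaving out arrays. Python 3.11.15, numpy 2.4.6, pandas 2.3.3 and matplotlib 3.10.9 were used.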

Additional observations from a re-analysis of the deposited data

Results flagged for a closer look

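Among 186 groups of 4 arrays of 1 tissue, over 95 named genes, 16 groups (8.6%) had 1 array far from the other 3 for their spread, and chance gives about 1 in 20. Each of the 16 spanned less than 1 log2 unit. The kidney array of 18 months accounted for 8. There Apom read 4387 against 4954 to 5032 at the other ages, Tnk2 195 against 34.4 to 108, Ugdh 3109 against 2047 to 2190, Gstt1 1070 against 1520 to 1594, Slc17a3 1869 against 1166 to 1258, Hpn 1050 against 1869 to 2039, Tubb5 474 against 758 to 818 and Camk2g 137 against 225 to 234. In kidney at 24 months Cldn2 read 2397 against 2581 to 2620. In liver at 4 months Slc37a4 read 2458 against 1984 to 2038, Khk 4272 against 3377 to 3485 and Cyp4a3 2970 against 4065 to 4314. In liver at 10 months Tnk2 read 171 against 68.9 to 109 and Tubb5 574 against 689 to 709. Ehhadh in liver at 18 months read 2461 against 2557 to 2565, and Acadl in liver at 24 months read 3781 against 5964 to 6353.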

How the results depend on the processing

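The number of higher genes was 371 with a floor of 50, 362 with 200, 398 after quantile normalization, 442 after median centring, 364 with the mean of a gene's probe sets, 328 where every probe set had to meet the rule, 139 with a distance of at least 2-fold, and 368 to 405 when an array was left out. Lower genes numbered 67 after median centring, 6 with a distance of at least 2-fold, 221 without the hypothalamus array of 10 months and the kidney array of 18 months, and 136 to 213 when an array was left out, the highest without that kidney array. An array left out can only add genes under a rule of no overlap, and a wider distance can only remove them. Median centring moved the median difference of all genes by 0.10 on the log2 scale. Counts of higher genes called between kidney and liver stayed within 1.5 times under every alternative (70 to 91 up, 107 to 143 down), and were 88 and 137 with no replicate block. The 5 lower genes called higher in liver numbered 2 to 6. The higher genes with a downward age slope, 0 in the tests reported, numbered 1, Nat8, with all 24 arrays in the fit, and against the other tissues 1, also Nat8, with a floor of 200 and with no filter, and 0 to 1 when an array was left out (1 without the kidney array of 4 months). Of 55 named genes called between kidney and liver, 23 lost the call under at least 1 alternative, Sord most often (12). Pck1 changed sign after quantile normalization, to 0.14 (adjusted p = 0.519). The cause was not tested. With 4 arrays per tissue, every test had limited precision.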
